A study of Rattus norvegicus with 9 samples.

Results

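The 5 genes described here carry out, direct or assist the methylation of cytosine in DNA: Dnmt1, Uhrf1, Dnmt3a, Dnmt3b and Dnmt3l. They were chosen by name from a list of 8 genes of this system, in a table of 17315 genes. The remaining 3, Tet1, Tet2 and Tet3, were not analysed here. The list names genes and sets no limit on any value. It was, however, drawn up with the read counts of these libraries in the 3 media in view. The differences between media in these 5 genes are thus given as a description, without a printed p-value. Neither these differences nor their calls at an adjusted p threshold support anything by themselves. RNA was sequenced from rat pXEN cells (stem cells of the primitive extraembryonic endoderm) of the line RX1 and the strain WKY, in 9 libraries. The 3 libraries of T came from cells on fibronectin in a DMEM/MCDB medium with 2% FBS (serum), 0.5 µM dexamethasone and the growth factors Egf, Pdgf and Lif at 10 ng/ml. The 3 libraries of LPE came from cells on collagen I in a medium based on DMEM/F12 and Neurobasal with N2 and B27, for which no serum or dexamethasone is listed, and the same growth factors. The 3 libraries of CPE came from the same coating and base medium with 1 µM Chir99021, an inhibitor of the kinase Gsk3, in place of Lif, and with the same Pdgf and Egf. All libraries share 1 cell line, and nothing in the labels says whether the 3 libraries of a medium came from separate cultures, so the spread between them may be technical. T differs from LPE and CPE in serum, dexamethasone, base medium and coating together, and these cannot be told apart.

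DNA methylation is laid down and kept by separate enzymes. Dnmt1 copies the methylation of the old strand to the new one after replication, and Uhrf1 binds half-methylated sites and brings Dnmt1 to them. Dnmt3a and Dnmt3b methylate DNA anew, and Dnmt3l, which has no catalytic activity, binds and stimulates them, while Tet enzymes oxidise the methyl group and open the way to its removal. In the mouse, the extraembryonic lineages carry less DNA methylation than the embryo proper.

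Start-site windows from RefSeq (build GRCr8) were found for 4 of the 5 genes, each holding 250 bases before and 50 bases after an annotated start. Uhrf1 has 3 windows, and the one printed was picked because it holds E2F matches, which the others do not. The window of Dnmt3l is printed because this gene differed most between media, and those of Dnmt1 and Uhrf1 because both genes were higher in each collagen I medium than in T. Capitals mark matches to the E2F words TTTCCCGC, TTTCGCGC, TTTGCCGC and TTTGGCGC on either strand.
Dnmt3l, chr20:10628940-10629239, minus strand: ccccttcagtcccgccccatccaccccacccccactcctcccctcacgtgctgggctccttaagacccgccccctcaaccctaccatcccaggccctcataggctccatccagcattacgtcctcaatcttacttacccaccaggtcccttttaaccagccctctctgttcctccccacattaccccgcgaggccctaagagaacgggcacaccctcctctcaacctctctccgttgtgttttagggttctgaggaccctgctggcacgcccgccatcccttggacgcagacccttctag
Dnmt1, chr8:27762792-27763091, minus strand: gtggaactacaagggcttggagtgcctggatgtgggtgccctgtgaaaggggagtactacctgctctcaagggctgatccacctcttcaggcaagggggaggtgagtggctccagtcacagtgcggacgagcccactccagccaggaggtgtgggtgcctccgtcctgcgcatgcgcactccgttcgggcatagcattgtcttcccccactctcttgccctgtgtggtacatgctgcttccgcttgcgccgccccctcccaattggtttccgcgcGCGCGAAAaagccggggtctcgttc
Uhrf1, chr9:1222936-1223235, plus strand: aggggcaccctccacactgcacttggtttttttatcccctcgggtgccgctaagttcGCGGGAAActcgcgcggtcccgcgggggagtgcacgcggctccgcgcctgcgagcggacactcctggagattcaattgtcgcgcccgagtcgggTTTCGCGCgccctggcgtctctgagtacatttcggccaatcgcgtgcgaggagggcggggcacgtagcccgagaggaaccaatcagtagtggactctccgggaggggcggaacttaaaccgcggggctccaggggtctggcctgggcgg
An E2F word stood in 2.14% of all 33469 windows. Each E2F word contains the dinucleotide CG, and this share was taken over all windows, whatever their number of CG. The Dnmt1 window held 1 match, starting at base 26 after the start site. The Uhrf1 window shown held 2, starting 193 and 99 bases before it, and the other windows of Uhrf1 held 0, as did those of Dnmt3l and Dnmt3a. The Stat word TTCNNNGAA (8.87% of windows) and the Tcf/Lef word CTTTGAT (3.63%), searched on both strands, matched in 0 windows of these genes. The CG dinucleotide occurred 8, 13 and 35 times in the 3 Uhrf1 windows, the last being the one shown, 17 times in that of Dnmt1, 21 times in that of Dnmt3a and 11 times in that of Dnmt3l, against a median of 7 over all windows. A match is a stretch of letters, not a measured binding site.

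A T library held 1698764 to 2161228 reads counted in genes. The LPE libraries held 3119049 to 3233526 and the CPE libraries 3127352 to 4418465. The T libraries had more genes with a count (10143 to 10621) than LPE (8607 to 9314) or CPE (9162 to 9878). Replicates of T varied by 1.94 to 4.26 times the sampling variance, those of LPE by 10.9 to 17.6 times and those of CPE by 11.03 to 14.2 times. Counts were scaled to CPM (counts per 1e6 counts in genes), and 1 count was worth 0.227 to 0.579 CPM. All 5 genes passed the filter on low counts.

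The 3 media gave 3 different sets of levels. In LPE, Dnmt3l and Uhrf1 were several-fold higher than in T and Dnmt1 was moderately higher, while Dnmt3a overlapped T. In CPE, Uhrf1 and Dnmt1 were also higher than in T, but Dnmt3a and Dnmt3b were several-fold lower than in both other media and Dnmt3l was close to its level in T. In the fit over all 9130 genes tested, 3 of the 5 genes were called higher and 0 lower in LPE than in T (edgeR, adjusted p under 0.05), against 15.0% of all genes called higher and 14.7% lower. In CPE against T, 2 were called higher and 3 lower, against 16.8% and 15.3% of all genes. In CPE against LPE, 0 were called higher and 3 lower, against 9.56% and 8.23%. The libraries of LPE and T did not overlap for 4 of the 5 genes, all 4 higher in LPE, beside 47.3% of all genes (21.9% higher and 25.4% lower). CPE and T did not overlap for 4, of which 2 were higher and 2 lower in CPE, beside 54.4% (26.2% and 28.1%). CPE and LPE did not overlap for 4, all lower in CPE, beside 31.3% (16.8% and 14.5%). The median log2 fold change of the 5 genes was 0.68 in LPE against T, -0.51 in CPE against T and -2.23 in CPE against LPE, beside -0.03, -0.01 and 0.01 over all genes. Nothing is read from these counts and medians, because the genes were chosen with the values known, and the comparisons share libraries.

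**Figure D1:**
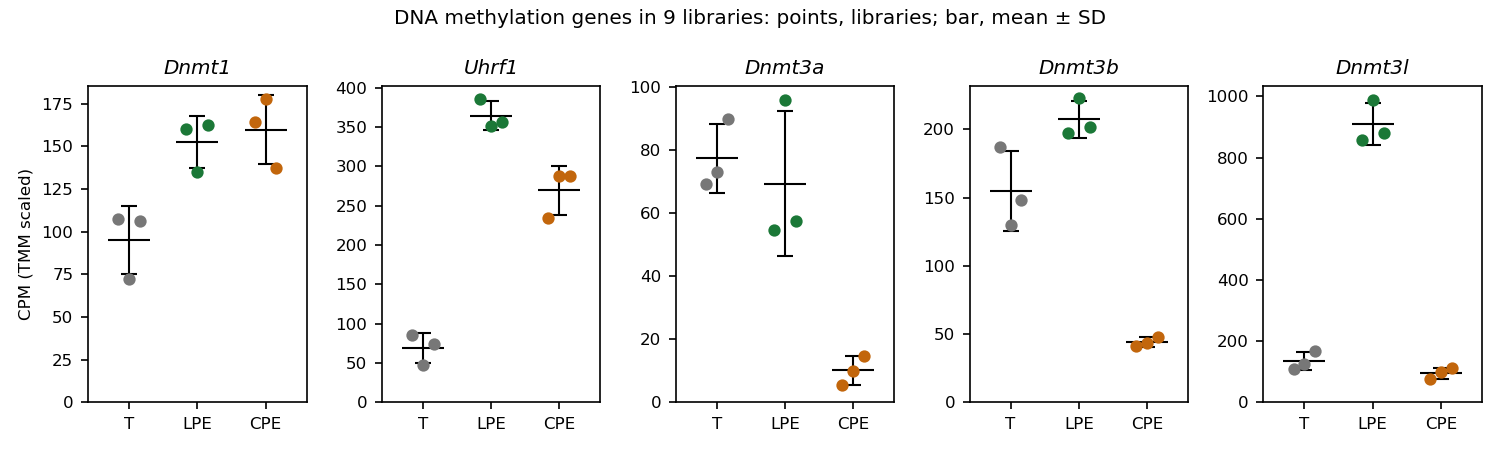
Level of each gene in CPM (linear axes, each from 0) by medium; points are the 3 libraries of a medium and the bar is their mean ± SD. Dnmt3l stands at 859 to 988 CPM in LPE and at or below 168 CPM in every other library, and Dnmt3a and Dnmt3b are lowest in the 3 CPE libraries.

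Dnmt1, the maintenance methyltransferase, was counted at 107, 72.4 and 106 CPM in T replicates 1, 2 and 3. It stood at 160.1, 135 and 162 CPM in LPE and at 164, 177 and 138 CPM in CPE. Every collagen I library lay above every T library, and LPE and CPE overlapped. The mean was 95.3 ± 19.9 CPM (T), 153 ± 15.0 CPM (LPE) and 159.6 ± 20.3 CPM (CPE) (SD, n = 3 each). The fitted difference was 1.597-fold in LPE against T (log2 fold change 0.68, SE 0.18, 95% interval 1.22-fold to 2.08-fold) and 1.67-fold in CPE against T (0.74, SE 0.18). Between CPE and LPE it was 1.05-fold, with an interval from 1.23-fold lower to 1.35-fold higher in CPE. T replicate 2 was the lowest library, and without it the LPE difference was 0.52 on the log2 scale and was not called. With bulk RNA, a change in the RNA of each cell and a change in the share of cells that express a gene cannot be told apart.

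Uhrf1, which recruits Dnmt1 to replicated DNA, differed far more. Its levels were 85.1, 48.1 and 73.9 CPM in T, 385, 351 and 357 CPM in LPE, and 234, 287 and 288 CPM in CPE. The 3 media did not overlap, with T lowest, CPE between and LPE highest. Means were 69.0 ± 19.0 CPM (T), 365 ± 18.3 CPM (LPE) and 269.9 ± 31.0 CPM (CPE) (SD, n = 3 each). Uhrf1 was 5.26-fold higher in LPE than in T (log2 fold change 2.40, SE 0.18) and stood 3.897-fold above T in CPE (1.96, SE 0.18). Of the 9130 genes, 171 had a larger rise in LPE against T and 435 in CPE against T. Between CPE and LPE the fitted difference was 1.35-fold lower in CPE (log2 fold change -0.43, SE 0.16, interval 1.06-fold to 1.71-fold lower), which was not called although the libraries did not overlap. It was called by DESeq2, with only those 2 media in the fit, without T replicate 2 and with all libraries thinned to the smallest total.

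Dnmt3a, a de novo methyltransferase, was lowest in CPE. It stood at 69.3, 73.0 and 89.7 CPM in T, at 54.7, 95.7 and 57.4 CPM in LPE, and at 5.60, 9.99 and 14.8 CPM in CPE. T and LPE overlapped, with the highest of these values and the 2 lowest all in LPE, and every CPE library lay below both. The CPE values came from 19, 44 and 46 reads. Means were 77.3 ± 10.9 CPM (T), 69.3 ± 23.0 CPM (LPE) and 10.1 ± 4.61 CPM (CPE) (SD, n = 3 each). The fit placed CPE 7.64-fold below T (log2 fold change -2.93, SE 0.35) and 6.84-fold below LPE (-2.77, SE 0.34). For LPE against T it gave -0.16 (SE 0.31), with an interval from 1.76-fold lower to 1.41-fold higher in LPE.

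Dnmt3b, the other de novo methyltransferase, was also lowest in CPE and had its highest mean in LPE. Its levels were 187, 129.7 and 148 CPM in T, 197, 223 and 202 CPM in LPE, and 41.0, 43.8 and 48.0 CPM in CPE. The media did not overlap, although the highest T library and the lowest LPE library lay close together. Means were 155 ± 29.4 CPM (T), 207 ± 13.6 CPM (LPE) and 44.3 ± 3.52 CPM (CPE) (SD, n = 3 each). CPE lay 3.499-fold below T (log2 fold change -1.81, SE 0.17) and 4.68-fold below LPE (-2.23, SE 0.17). The difference of LPE from T was small, 1.34-fold (0.42, SE 0.16, interval 1.05-fold to 1.699-fold), and was not called. It was called without T replicate 1, with only those 2 media in the fit and with all libraries thinned, at 0.57, 0.45 and 0.46 on the log2 scale.

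Dnmt3l, the catalytically inactive partner of Dnmt3a and Dnmt3b, was highest in LPE. It stood at 109.7, 126 and 168 CPM in T, at 859, 988 and 881 CPM in LPE, and at 75.2, 97.9 and 111 CPM in CPE. Every LPE library was far above the other 6, while T and CPE overlapped at the lowest T and the highest CPE library. Means were 135 ± 30.0 CPM (T), 909 ± 69.0 CPM (LPE) and 94.8 ± 18.3 CPM (CPE) (SD, n = 3 each). Dnmt3l was 6.74-fold higher in LPE than in T (log2 fold change 2.75, SE 0.17), and 110 genes had a larger rise. CPE lay 9.59-fold below LPE (-3.26, SE 0.17), and 115 genes had a larger fall. CPE lay 1.42-fold below T (-0.51, SE 0.17, interval 1.11-fold to 1.82-fold lower). That difference was called, but not with only those 2 media in the fit (-0.49), nor without T replicate 2 (-0.55), T replicate 3 (-0.31), CPE replicate 1 (-0.37) or CPE replicate 2 (-0.54). Leaving out T replicate 3 or CPE replicate 1 thus brought it nearest to 0. T and LPE both contained Lif.

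**Figure D2:**
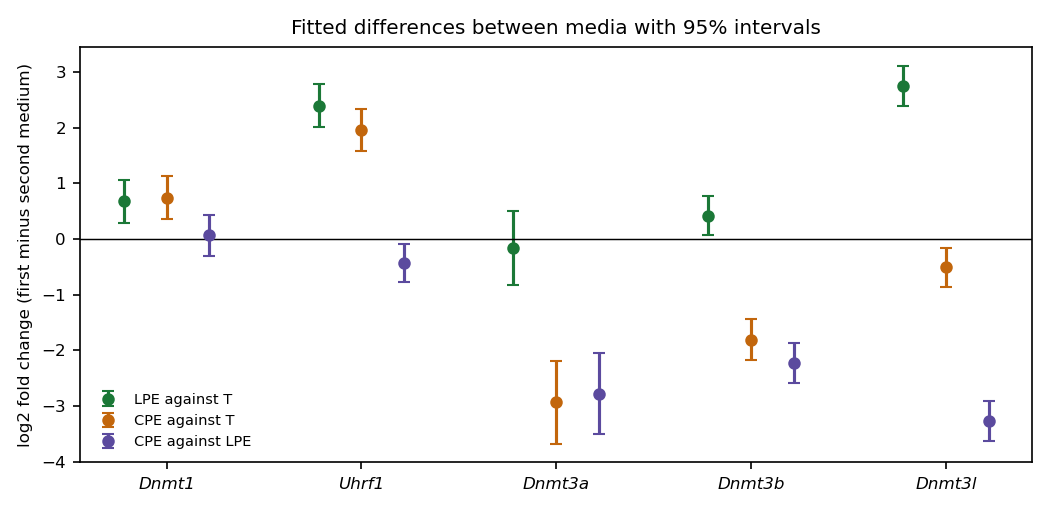
Fitted log2 fold change of each gene in the 3 comparisons of media, with 95% intervals from the fit over all genes; values above 0 are higher in the medium named first. The intervals of Dnmt3a, Dnmt3b and Dnmt3l in CPE against LPE all lie below -1.8, and that of Dnmt1 spans 0.

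Ratios of read counts between these genes within a library do not depend on the scaling of libraries, and gene length cancels when 1 ratio is compared between media. Reads of Uhrf1 per read of Dnmt1 were 0.664 to 0.792 in T, 2.20 to 2.598 in LPE and 1.43 to 2.096 in CPE. Uhrf1 thus stood higher against Dnmt1 in each collagen I library than in any T library, and LPE lay above CPE without overlap. Reads of Dnmt3b per read of Dnmt1 were 1.39 to 1.79 in T and 1.23 to 1.65 in LPE, which overlapped, and 0.247 to 0.349 in CPE. The de novo enzyme was thus lower against the maintenance enzyme in every CPE library than in any other library.

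Within the de novo group, Dnmt3l per Dnmt3b was 0.586 to 1.14 in T, 1.83 to 2.32 in CPE and 4.36 to 4.44 in LPE, with no overlap between media. The 3 LPE ratios were close together (4.39 ± 0.0441, SD, n = 3), although LPE replicates varied more than T replicates over all genes. CPE stood above T in this ratio while Dnmt3l itself was not higher in CPE than in T. Dnmt3b per Dnmt3a was 1.65 to 2.70 in T, 2.32 to 3.602 in LPE and 3.24 to 7.32 in CPE, and neighbouring media overlapped. These ratios were compared without a test.

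**Figure D3:**
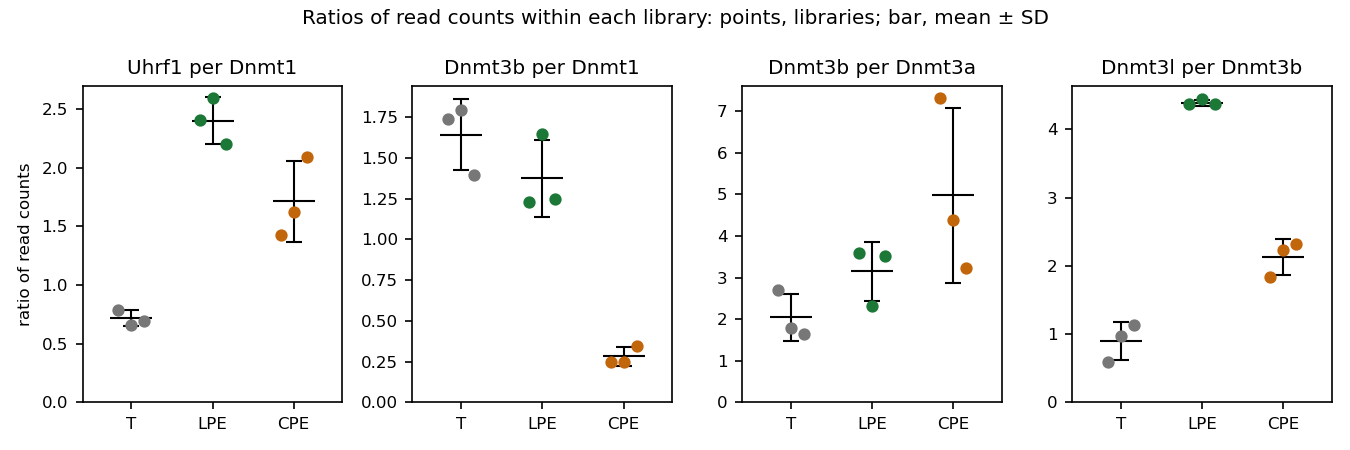
Ratios of read counts within each library by medium (linear axes from 0); points are libraries and the bar is the mean ± SD of 3. Dnmt3b per Dnmt1 is 0.247 to 0.349 in CPE and at least 1.23 in T and LPE, and the 3 LPE ratios of Dnmt3l to Dnmt3b lie between 4.36 and 4.44.

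The rest of the DNA methylation system was described through 6 lists with 86 genes, of which 72 were tested. Like all other lists here, they were chosen with earlier results of these data known. The list genes given with an adjusted p were picked among those called, by size of change. Their adjusted p-values thus describe the fit and support nothing by themselves. In LPE against T 9 of the 72 rose and 11 fell (27.8%, beside 29.7% of all genes), and in CPE against T 10 rose and 11 fell (29.2%, beside 32.1%). In CPE against LPE 9 rose and 2 fell (15.3%, beside 17.8%). Their medians were -0.04, -0.02 and 0.02 on the log2 scale. These shares were near those of all genes. In CPE against T, 12 of the 72 were called without T replicate 2.

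Among 8 tested maintenance partners, 1 rose and 1 fell in LPE against T, 0 rose and 1 fell in CPE against T and 0 changed between CPE and LPE, with medians of -0.04, -0.22 and -0.14. Usp7, a deubiquitinase that binds Dnmt1 and Uhrf1, rose from 383 ± 8.23 to 553 ± 45.6 CPM in LPE (1.45-fold, edgeR adjusted p = 0.0021). Cdca7, a partner of the chromatin remodeller Hells, fell from 129 ± 7.45 CPM in T to 62.7 ± 11.8 in LPE and 72.4 ± 3.32 in CPE (2.06-fold and 1.78-fold). Of 8 imprint protection factors, 2 rose and 0 fell in LPE against T, 2 rose and 1 fell in CPE against T and 0 changed between CPE and LPE, with medians of 0.40, 0.32 and -0.09. Trim28, the corepressor that guards imprinted methylation, rose from 655 ± 11.5 CPM in T to 1239 ± 72.3 in LPE and 1422 ± 94.2 in CPE (1.89-fold and 2.17-fold, edgeR adjusted p = 2.0e-06 and 2.4e-07). Setdb1, the histone H3 lysine methyltransferase that works with it, rose 1.64-fold in each, but each call was lost without any of 5 of the 6 libraries compared (adjusted p = 0.0504 to 0.138), and the fall of Naa10 in CPE was likewise lost without any of 5.

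Methyl-CpG readers gave 1 rise and 1 fall of 6 in LPE against T, 1 and 1 in CPE against T and 1 and 0 in CPE against LPE, with medians of 0.58, 0.39 and 0.01. Mbd2, a protein that binds methylated CpG, was highest in CPE, with 42.7 ± 1.13 CPM (T), 61.7 ± 10.03 CPM (LPE) and 110.01 ± 12.5 CPM (CPE), a rise of 2.58-fold against T and 1.78-fold against LPE (edgeR adjusted p = 0.00013 and 0.0086). Mbd3 fell 1.56-fold in LPE and 1.29-fold in CPE against T, the latter lost without any of 5 libraries. Of 19 demethylation repair genes and Tet partners 1 rose and 4 fell in LPE, 1 rose and 3 fell in CPE against T, and 3 rose and 0 fell in CPE against LPE, with medians of -0.53, -0.32 and 0.13. Ogt, an enzyme that binds Tet proteins and adds a sugar to proteins, fell from 788 ± 25.3 CPM in T to 371 ± 0.933 in LPE (2.12-fold) and was 1.51-fold higher in CPE than in LPE. The repair endonuclease gene Apex1 fell 2.18-fold in LPE and 1.97-fold in CPE, from 214 ± 15.8 CPM in T. Parp1, a sensor of DNA breaks, rose 2.30-fold in LPE, Cxxc5, which has a CpG-binding zinc finger, rose 2.42-fold in CPE against T, and the uracil glycosylase gene Ung fell 1.69-fold in CPE, a call lost without T replicate 2 or CPE replicate 1 (adjusted p = 0.119 and 0.0606).

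Histone methylation partners gave 3 rises and 1 fall of 15 in LPE against T, 4 and 2 in CPE against T and 3 and 1 in CPE against LPE, with medians of -0.02, 0.27 and 0.001. Setd2, which writes the H3 mark that Dnmt3b binds in gene bodies, was highest in LPE, with 363 ± 20.8 CPM (T), 594 ± 51.9 CPM (LPE) and 439 ± 24.7 CPM (CPE) (1.64-fold in LPE against T, edgeR adjusted p = 0.00013). Nsd1, which writes the mark that Dnmt3a binds between genes, rose 1.43-fold in LPE, a call lost without T replicate 2 (adjusted p = 0.0572). Kdm2b and the Polycomb methyltransferase gene Ezh2 rose 1.96-fold and 1.72-fold in CPE against T. Suv39h1 and Ehmt2, both H3K9 methyltransferase genes, were 1.98-fold and 1.898-fold higher in CPE than in LPE. The falls of the Polycomb gene Eed and of the demethylase gene Kdm1a in CPE against T and of Ehmt2 in LPE against T were each lost without some single libraries (3, 2 and 2 of them).

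Methyl donor and folate cycle genes gave 1 rise and 4 falls of 16 in LPE against T, 2 and 3 in CPE against T and 2 and 1 in CPE against LPE, with medians of -0.21, -0.21 and 0.13. Mat2a, which makes S-adenosylmethionine, the methyl donor of all these enzymes, fell from 691 ± 60.2 CPM in T to 414 ± 48.5 in LPE and 433 ± 20.1 in CPE (1.67-fold and 1.59-fold, edgeR adjusted p = 0.00014 and 0.00028). The mitochondrial folate gene Mthfd1l rose 2.03-fold in LPE and 2.26-fold in CPE against T. Ahcyl1 was highest in CPE (252 ± 54.7 CPM, 1.82-fold above T), and Mthfd2 was lowest there, a call lost against T without any of 5 libraries and against LPE without any of 3.

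**Figure D4:**
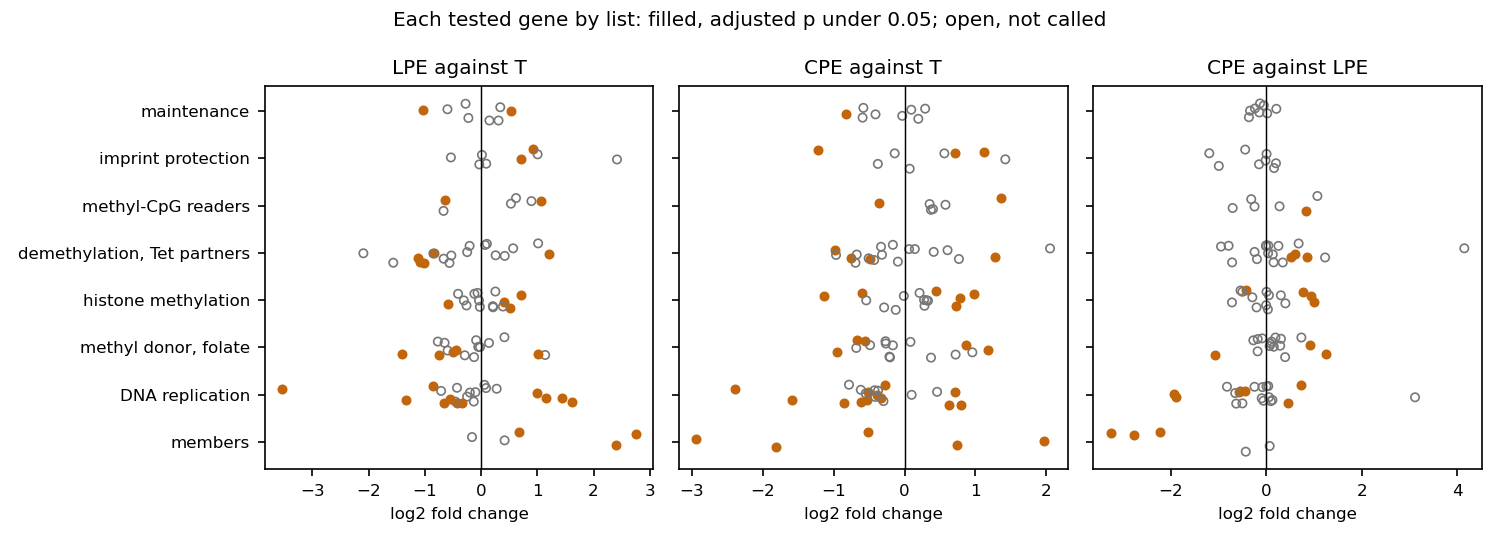
Log2 fold change of each tested gene of the 6 lists, of the DNA replication genes and of the 5 genes described here, by comparison; filled points were called at an adjusted p under 0.05 and points are spread vertically only to be seen. List genes lie on both sides of 0 in most lists, and Dnmt3l lies at 2.75 in LPE against T and at -3.26 in CPE against LPE.

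Because Dnmt1 and Uhrf1 are expressed mainly in dividing cells around DNA replication, 21 replication genes were set beside them. In LPE against T 4 of the 21 rose and 7 fell (52.4%, beside 29.7% of all genes, median -0.25). In CPE against T 3 rose and 9 fell (57.1%, beside 32.1%, median -0.41). Without T replicate 2 or T replicate 3 the number called was 7 in each of these comparisons. In CPE against LPE 2 rose and 4 fell (28.6%, beside 17.8%, median -0.10). The 2 that rose were Pole, from 132 ± 16.2 CPM in LPE to 219 ± 30.5 in CPE (1.66-fold, edgeR adjusted p = 0.0030), and Mcm7 (1.36-fold). The call of Mcm7 was lost without LPE replicate 3 or CPE replicate 3. Rrm2, a ribonucleotide reductase subunit, rose from 923 ± 30.3 CPM in T to 2841 ± 299 in LPE (3.08-fold, edgeR adjusted p = 1.2e-08) and in CPE lay 3.74-fold below LPE. The helicase gene Mcm6 rose 2.22-fold in LPE and 1.64-fold in CPE against T. The licensing factor gene Cdt1 rose 2.70-fold in LPE and 1.74-fold in CPE, the CPE call being lost without any of 4 libraries. Ccne1, the cyclin of the entry into replication, fell from 153 ± 8.48 CPM in T to 60.4 ± 11.8 in LPE and 50.8 ± 2.01 in CPE. E2f1, a transcription factor of that transition, stood at 53.6 ± 8.99, 39.04 ± 13.9 and 10.2 ± 2.98 CPM and fell 5.25-fold in CPE against T and 3.83-fold against LPE. Cdc45 had 19, 21 and 26 reads in T and 9, 0 and 0 in LPE, a fall whose call was lost without any of 4 libraries. The part of cell division in the levels of Dnmt1 and Uhrf1 was not tested.

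Genes with the most alike pattern were sought for Dnmt3l and Dnmt3a, which had the widest range of means (9.59-fold and 7.63-fold). By Pearson correlation of log2 CPM over the 9 libraries, the nearest to Dnmt3l were Slc38a1 (r = 0.986), Kcnd3 (0.981) and Rrm2 (0.981). The glutamine transporter gene Slc38a1 averaged 355 CPM (T), 715 CPM (LPE) and 288 CPM (CPE). Nearest to Dnmt3a were Fbxo44 (r = 0.991), Mrps5 (0.985) and Preb (0.984). Mrps5, a mitochondrial ribosomal protein gene, averaged 127, 119 and 76.2 CPM, a far smaller range than that of Dnmt3a. The points share 3 media and differ in depth, so these correlations describe the libraries only.

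Markers were checked because Dnmt3b and Dnmt3l are also known from pluripotent cells. All 10 primitive endoderm markers analysed had counts in every medium, and their summed level was 9044 to 10100.2 CPM in T, 21076 to 25076 in LPE and 11850 to 13661 in CPE. Lama1 and Col4a1, which encode matrix proteins, made up 83.6% to 85.9% of the sum in LPE, and the other 8 markers summed to 3460 to 3948 CPM (T), 3415 to 3670 CPM (LPE) and 2546 to 2875 CPM (CPE), with T and LPE overlapping. Of the 10 endoderm markers 4 rose and 1 fell in LPE against T, 5 rose and 4 fell in CPE against T and 0 rose and 5 fell in CPE against LPE. The shares called were 50%, 90% and 50%, beside 29.7%, 32.1% and 17.8% of all genes. The markers called included the laminin gene Lama1 (3.501-fold higher in LPE than in T), the collagen gene Col4a1 (2.99-fold) and, downward, Pdgfra (1.599-fold). In CPE, Col4a1 lay 1.67-fold above T, and Lama1 lay 2.11-fold below LPE. Of 10 pluripotency and epiblast markers, Nanog, Sox2, Fgf4, Fgf5 and Otx2 had 0 counts in all 9 libraries. These 0 counts do not cover all factors of pluripotent cells. A factor shared with primitive endoderm was counted among the endoderm markers and was expressed in every medium. The summed level of the pluripotency and epiblast list was 72.03 to 93.2 CPM in T, 196 to 200.002 in LPE and 109 to 142 in CPE, mainly from Klf4 and Tfcp2l1. Genes of this list with a count numbered 5 (T), 3 (LPE) and 5 (CPE). Without Klf4 and Tfcp2l1 the list summed to 2.32 to 4.05 CPM (T), 0 to 0.639 CPM (LPE) and 2.27 to 8.70 CPM (CPE), and was thus lowest in LPE. Tfcp2l1, a transcription factor of the naive pluripotent state, averaged 8.82 ± 1.84 CPM (T), 70.9 ± 2.79 CPM (LPE) and 14.9 ± 2.85 CPM (CPE) and was thus highest in the same medium as Dnmt3l (8.02-fold in LPE against T, edgeR adjusted p = 6.3e-06). The part of these markers in the levels of Dnmt3b and Dnmt3l was not tested.

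Of 7 trophoblast markers, 2 had a count in T, 2 in LPE and 4 in CPE, with summed levels of 0.93 to 2.73, 1.60 to 3.11 and 14.3 to 30.6 CPM, and Ascl2, Hand1 and Gcm1 had 0 counts in all libraries. The CPE level was mainly that of the trophoblast transcription factors Cdx2 and Elf5 (84.1% to 100% of the sum). Cdx2, which the naming rule did not pick and which was named after its values were seen, had 28, 0 and 70 counts in the CPE libraries (8.26, 0 and 22.5 CPM) and 0 in every T and LPE library, and it was below the count filter and not tested. Elf5, known in the mouse to be silenced by DNA methylation outside the trophoblast, had 1 count in each T library, 0 in each LPE library and 33, 53 and 18 in CPE, and was at least 9.66-fold higher in CPE than in LPE, with LPE set at 3 counts per library. Its call against T was lost without any of 5 libraries. Of 7 fibroblast markers, 3 had counts in T (1.39 to 32.4 CPM summed), 0 in LPE and 1 in CPE (0 to 6.44 CPM), and Col1a2, Dcn, Lum and Postn had 0 counts in all libraries.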

How the data were processed

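RNA of 9 libraries, 3 in each medium, was sequenced after removal of ribosomal RNA with a directional kit, per the labels' protocols. The submitters' processing notes name CASAVA 1.8.2, Trimmomatic 0.33, STAR 2.5.1 and DESeq2, and the build rn6. For the annotation, no name was found in these sources. The authors deposited unnormalized read counts for every gene, 1 table for a library, and column 4, the gene strand, was used here, the other strand holding 0.822% to 0.986% of the reads of both. Reads mapping to several places (51.7% to 67.6%), reads outside genes (13.9% to 26.1%), unmapped reads (6.32% to 8.67%) and ambiguous reads (1.11% to 2.46%) stayed out of library sizes and tests.

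Counts were fitted with edgeR 4.0.16 in R 4.3.3 (quasi-likelihood F test, TMM factors, filterByExpr with its minimum count of 10 and minimum total of 15), with a mean per medium over all 9 libraries. The fit kept 9130 genes, and p-values were adjusted by Benjamini-Hochberg over them, with calls at an adjusted p under 0.05. SE is the log2 fold change divided by the root of F. Intervals cover the spread between libraries, and depth limits genes of few counts. The genes and the lists (168 genes, 153 analysed) were chosen with earlier results of these data known. Whsc1 was taken for Nsd2 by its RefSeq synonym. All 5 genes are described, and in each list and comparison at most 2 called genes per direction, by size of the change and with 5 CPM or more in the higher medium, could be named. Alternatives were DESeq2 1.42.0, other size factors, no filter, reads on either strand, only the 2 media compared, a replicate block and leaving out each library. No gene length was used, so levels were not compared between genes. Some rows were not analysed here, and 2 list genes that the naming rule picked are not reported here by name.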

Additional observations from a re-analysis of the deposited data

How the results depend on the processing

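The 15 differences of the 5 genes were recomputed under 16 alternatives each, of which 225 of 240 had the same direction and the same side of the threshold, 6 lost a call, 7 gained one and 2 changed sign. The sign changes were both of Dnmt1 in CPE against LPE, at -0.015 without LPE replicate 2 and -0.016 without CPE replicate 2 on the log2 scale, beside 0.07, with 0.16 (without CPE replicate 3) as the highest value. Leaving out a library gave 2 to 4 of the 5 genes called in LPE against T, 4 to 5 in CPE against T and 3 to 4 in CPE against LPE. Of the 72 other DNA methylation genes, leaving out a library gave 14 to 21, 12 to 26 and 10 to 13 called, and of the 21 replication genes 7 to 11, 7 to 12 and 4 to 7. The cause of these changes was not tested, but each such fit has fewer samples. The named list genes gave 75 differences, of which 86 of 1198 refits lost a call and 0 changed sign. Repeating the alternatives on them and thinning each library to 1698764 reads were chosen after seeing the data. Same-numbered libraries did not deviate together (correlations from -0.03 to 0.01, against -0.05 to 0.04 for other numbers). No pairing by number was thus seen, but with 3 libraries in a medium this check cannot exclude shared handling. With the replicate block the numbers of the 5 genes called were 3, 5 and 3 in LPE against T, CPE against T and CPE against LPE, and of the other DNA methylation genes 21, 20 and 11. The median log2 fold change of all genes moved by less than 0.1 between scalings (-0.04 to 0.02).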

Other observations

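Germline genes that DNA methylation keeps silent in the mouse were described as a further group. Of 17 analysed, Sycp3, Taf7l, Brdt, Hormad1 and Dpep3 had 0 counts in all 9 libraries, 9 others were below the count filter and 3 were tested. Genes with a count numbered 10 (T), 7 (LPE) and 11 (CPE), while the T libraries detected more genes in general. Summed levels were 525 to 595 CPM in T, 245 to 280.3 in LPE and 289 to 352 in CPE, mainly from Sohlh2 and Rhox5. Sohlh2, a germ cell transcription factor, stood at 339, 382 and 339 CPM in T, 155, 109 and 139.7 CPM in LPE and 36.6, 44.5 and 41.9 CPM in CPE. The 3 media did not overlap, and Sohlh2 fell 2.62-fold in LPE and 8.597-fold in CPE against T and in CPE lay 3.28-fold below LPE.

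Rhox5, an X-linked homeobox gene, had its lowest level in LPE, where it fell 1.79-fold against T (edgeR adjusted p = 0.00089), with 173 ± 8.01 CPM (T), 96.4 ± 11.02 CPM (LPE) and 232 ± 40.6 CPM (CPE) (SD, n = 3 each). Whereas Sohlh2 was lower in CPE than in LPE, Rhox5 was 2.41-fold higher. Its rise of 1.35-fold in CPE against T was lost without any of 4 libraries (adjusted p = 0.0849 to 0.22), with the replicate block, without the count filter and with reads on either strand. Piwil2, a partner of small germline RNAs, rose 2.26-fold in CPE against T, to 35.4 ± 8.05 CPM, a call lost without any of 4 libraries (adjusted p = 0.104 to 0.165) and after thinning. No methylation was measured, and any link between these levels and the methyltransferase genes was not tested.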
